A study of Mus musculus with 8 samples.

Results

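The NKT17 program genes are 9 genes that mark the natural killer T (NKT) cells that make interleukin-17. They were taken by name, with earlier results of these data known, as Il17a, Il23r, Il1r1, Il17re, Ccr6, Serpinb1a, Pxdc1, Tmem176a and Tmem176b. All 9 were found among the 27179 genes of the count table, and all 9 were among the 13794 that passed the filter on low counts. RNA-seq read counts were measured in thymic NKT cells of C57BL/6 mice, either wild type (WT) or Ezh2 knock-out (Ezh2-KO), with no treatment named in the labels. Staining for CD44 and NK1.1 split the cells into 3 subsets. The CD44+ NK1.1- subset had 2 biological replicates per genotype, and the CD44- NK1.1- and CD44+ NK1.1+ subsets had 1 library per genotype, which made 8 libraries in 6 groups. The labels do not say how or in which cells Ezh2 was deleted, how old the mice were or how many mice went into a library.

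NKT cells are T cells whose receptor sees lipids presented by CD1d, and in the thymus they split into NKT1, NKT2 and NKT17 cells. NKT17 cells release interleukin-17 within hours of stimulation. They respond to interleukin-23 and interleukin-1β, carry the chemokine receptor CCR6 and lack NK1.1, so that they lie in the CD44+ NK1.1- gate together with NKT2 cells and NKT1 cells that have not yet gained NK1.1. EZH2 is the catalytic part of Polycomb repressive complex PRC2 and puts methyl groups on histone H3 at silenced genes. In the usual order of thymic NKT development the CD44- NK1.1- stage comes before CD44+ NK1.1-, and CD44+ NK1.1+ comes last.

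Total counts ran from 20308745 to 22995090 per library, so that 3 counts, used as the floor where a library had none, were 0.129 to 0.151 CPM. Levels below are CPM, a gene's share of all counts, scaled by the trimmed mean of M values (TMM). Ezh2 was lower in each Ezh2-KO library than in WT of the same subset, at 77.9 and 83.3 against 113 and 136 CPM in CD44+ NK1.1- cells (log2 fold change -0.63 ± 0.12 SE, edgeR adjusted p = 0.0407). Counts per gene do not show which exons were deleted. The T cell and NKT genes used as an identity check (Cd3e, Zbtb16 and 8 others) summed to 4262 to 5839 CPM. Myeloid markers summed to 3.24 to 18.1 CPM, stromal markers to 4.60 to 9.67 CPM, with Col3a1 and Pdgfra at 0 in all libraries, dendritic cell markers to 19.1 to 35.2 CPM and B cell markers to 117 to 344 CPM, highest in the CD44+ NK1.1+ libraries. WT CD44+ NK1.1- replicate 1 stood apart from replicate 2. Its 16 immediate early genes summed to 3898 against 924 CPM, its 7 immature thymocyte markers to 78.8 against 27.9 CPM, with 13.6 to 60.5 CPM in the other libraries, its 12 NKT1 genes to 2125 against 1173 CPM, and its mitochondrial share was 0.154% of counts, against 0.0387 to 0.0745% in the other 7 libraries.

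Promoter sequences are shown for the cytokine gene Il17a, for the receptor genes Il23r and Ccr6, which were far higher in CD44+ NK1.1- than in CD44- NK1.1- cells, and for Pxdc1, whose promoter is of another type. Each is the 250 bases before the start site given by RefSeq in build GRCm38.p6, written 5′ to 3′ on the strand of the gene. Capitals mark letters that match 4 short motifs looked for on both strands, the nuclear receptor half-site AGGTCA, its longer form TNGGTCA, which overlaps it, the AP-1 site TGANTCA and the T-box half-site AGGTGTNA. The windows are chr1:20730655-20730904 on the forward strand, chr6:67491856-67492105 on the reverse strand, chr17:8235793-8236042 on the forward strand and chr13:34652682-34652931 on the reverse strand.
Il17a: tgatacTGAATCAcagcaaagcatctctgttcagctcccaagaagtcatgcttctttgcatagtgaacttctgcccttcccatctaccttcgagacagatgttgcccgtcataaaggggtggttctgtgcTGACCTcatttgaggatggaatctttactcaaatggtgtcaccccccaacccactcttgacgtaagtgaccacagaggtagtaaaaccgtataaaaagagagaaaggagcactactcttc
Il23r: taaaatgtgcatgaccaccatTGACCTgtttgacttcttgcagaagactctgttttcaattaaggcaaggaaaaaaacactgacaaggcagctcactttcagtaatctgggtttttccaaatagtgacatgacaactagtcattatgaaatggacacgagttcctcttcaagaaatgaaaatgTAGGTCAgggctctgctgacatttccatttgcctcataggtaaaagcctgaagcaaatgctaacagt
Ccr6: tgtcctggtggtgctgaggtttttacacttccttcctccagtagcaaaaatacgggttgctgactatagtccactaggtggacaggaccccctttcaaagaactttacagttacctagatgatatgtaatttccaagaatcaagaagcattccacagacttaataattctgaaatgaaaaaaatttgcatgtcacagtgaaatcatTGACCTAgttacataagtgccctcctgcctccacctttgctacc
Pxdc1: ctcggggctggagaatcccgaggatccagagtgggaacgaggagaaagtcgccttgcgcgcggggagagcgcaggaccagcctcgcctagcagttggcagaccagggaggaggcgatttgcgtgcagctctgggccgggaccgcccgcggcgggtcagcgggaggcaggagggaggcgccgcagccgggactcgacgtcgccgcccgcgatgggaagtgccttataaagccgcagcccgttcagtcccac

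RefSeq promoters were found for 8 of the 9 genes. Letters of the half-site or its longer form were present in 4 of these 8, namely Il17a, Il23r, Il17re and Ccr6, against 19.7% of the 27025 promoters of this length. The half-site alone occurs in 13.8% of all promoters and the longer form in 9.17%. In Il17a the half-site lies on the reverse strand at bases -120 to -115, counted back from the start site, and an AP-1 match, a motif held by 6.85% of promoters, lies at -244 to -238. Il23r holds a half-site at -229 to -224 and the longer form at -67 to -61. The Ccr6 match lies at -44 to -38 and that of Il17re at -53 to -47, both on the reverse strand. The T-box letters, present in 2.7% of promoters, were in none of the 8 windows, which says only that these letters are absent from these bases. Pxdc1 held 28 CpG pairs, an observed over expected ratio of 0.946, while the other 7 had ratios of 0.0474 to 0.306 against a median of 0.379 over all promoters. A match of letters is a description of the sequence and no evidence that a factor binds there.

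The genes lie on 4 chromosomes of mm10. Il17a (chromosome 1, 20730905 to 20734496) encodes the cytokine interleukin-17A. Il17re (chromosome 6, 113458699 to 113470758) encodes a chain of the receptor for interleukin-17C, Il23r (chromosome 6, 67422932 to 67491855) the specific chain of the interleukin-23 receptor, and Il1r1 (chromosome 1, 40222480 to 40316201) the signalling receptor for interleukin-1. Ccr6 (chromosome 17, 8236041 to 8258519) encodes the receptor for the chemokine CCL20. Serpinb1a (chromosome 13, 32842092 to 32853206) encodes an inhibitor of neutrophil serine proteases, and Pxdc1 (chromosome 13, 34627840 to 34652681) a protein with a PX domain. Tmem176a (chromosome 6, 48841483 to 48845364) and Tmem176b (chromosome 6, 48833811 to 48845948) encode related membrane channels. These last genes lie on opposite strands and all 3882 bases of Tmem176a fall within Tmem176b. No source used here gives the strand setting of the counting, so reads of the pair may be mixed and their values are uncertain.

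Levels per kilobase of the deposited gene length, as means over the 4 CD44+ NK1.1- libraries, put Tmem176a highest at 30.5 ± 3.99 CPM per kb (SD, n = 4), then Tmem176b at 19.8 ± 2.8. Pxdc1 at 14.4 ± 0.21 and Serpinb1a at 14.2 ± 2.37 came next and did not differ beyond their spread. Il1r1 had 8.44 ± 1.35 CPM per kb. Il17re (6.46 ± 0.89), Il23r (6.34 ± 1.89) and Ccr6 (4.87 ± 3.68) overlapped in their spread, and Ccr6 differed between genotypes as given below. The cytokine gene itself was the lowest, Il17a at 1.21 ± 1.6 CPM per kb, with an SD above its mean. Each SD spans 2 WT and 2 Ezh2-KO libraries, so that it holds any genotype difference as well as the spread between replicates.

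All but Il17a and the Tmem176 pair, 6 genes, shared one pattern with a large rise, described here for each role and drawn in the plot of the members by library. They were lowest in CD44- NK1.1- cells, and all libraries of both CD44+ subsets lay above both CD44- NK1.1- libraries. Within each genotype their level in CD44+ NK1.1+ cells was below the mean of the CD44+ NK1.1- replicates, a difference that passed the test below for 4 of the 6 and not for Il23r and Ccr6. Their mean level rose 7.01 to 149 times from CD44- NK1.1- to CD44+ NK1.1- cells. Il17a and the Tmem176 pair also lay higher in all CD44+ libraries. Tmem176a and Tmem176b rose only 1.87 and 1.53 times, and Il17a had 3 counts in WT CD44+ NK1.1- replicate 2. With NK1.1, Il17a and Tmem176b were lower in each genotype, while Tmem176a was 1.11 times as high in WT. In bulk RNA, fewer cells of a type and less RNA per cell cannot be told apart.

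**Figure D1:**
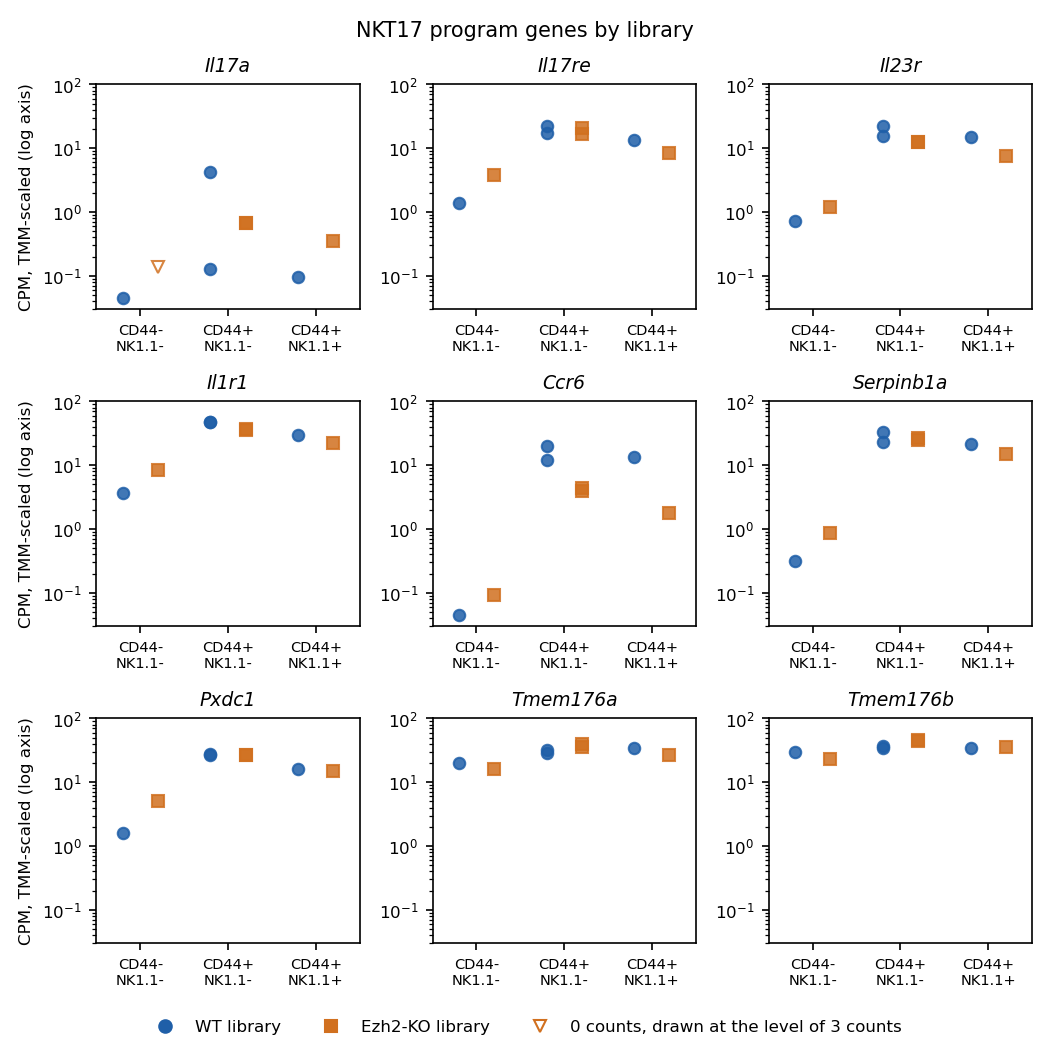
Level of each NKT17 program gene (CPM scaled by TMM, log axis) in the 8 libraries, by subset on the horizontal axis, WT as blue circles and Ezh2-KO as orange squares, 1 point per library. Ccr6 runs from 0.045 CPM in WT CD44- NK1.1- cells to 20.3 CPM in a WT CD44+ NK1.1- library, Tmem176a and Tmem176b vary least, and the WT replicates of Il17a lie far apart.

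The cytokine Il17a had 93 and 3 counts in the WT CD44+ NK1.1- replicates, or 4.19 and 0.129 CPM. It had 14 and 15 counts in the Ezh2-KO replicates, or 0.668 and 0.675 CPM. Only 2 counts (WT) and 7 counts (Ezh2-KO) were found in CD44+ NK1.1+ cells, and 1 and 0 in CD44- NK1.1- cells. A single library, WT replicate 1, thus carried most Il17a reads of the series, 32.5 times those of replicate 2 after scaling (95% interval 10.8 to 160 for counting error). The other 8 members differed far less between these replicates, with ratios of replicate 1 over replicate 2 of 0.589 to 1.01. Il17f, the close relative of Il17a, had 1.08 against 0.043 CPM in the same pair of libraries, Il22 had 2.21 against 0.086 CPM, and Nfkbiz, a cofactor of Il17a transcription, had 134 against 14.4 CPM. Il22 and Nfkbiz were chosen after their values were seen. The immediate early genes and the mitochondrial share of that library were also the highest of the series, and their part in the Il17a value was not tested. In the Ezh2-KO pair the ratios of replicate 2 over replicate 1 were 0.819 to 1.13 over all 9 genes.

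Of the receptors, Il23r had 0.719 CPM in WT and 1.19 CPM in Ezh2-KO CD44- NK1.1- cells. In CD44+ NK1.1- cells it had 15.6 and 22.4 CPM in WT and 12.4 and 12.6 CPM in Ezh2-KO, and in CD44+ NK1.1+ cells 14.9 and 7.59 CPM. All CD44+ libraries were above both CD44- libraries for Il23r, and its WT and Ezh2-KO replicates did not overlap. Il1r1 had 3.73 CPM in WT and 8.39 CPM in Ezh2-KO CD44- NK1.1- cells. It reached 48.5 and 48.3 CPM in the WT and 36.8 and 36.4 CPM in the Ezh2-KO CD44+ NK1.1- replicates, and had 30.3 and 22.2 CPM in CD44+ NK1.1+ cells. The WT replicates of Il1r1 were closer to each other than those of Il23r. Il17re had 1.39 and 3.80 CPM in WT and Ezh2-KO CD44- NK1.1- cells, then 17.4 and 22.5 CPM in WT and 20.6 and 16.8 CPM in Ezh2-KO CD44+ NK1.1- cells, and 13.6 and 8.45 CPM in CD44+ NK1.1+ cells. Here the genotypes overlapped in the replicated subset.

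Ccr6 had 1 count in WT and 2 counts in Ezh2-KO CD44- NK1.1- cells, below the level of 3 counts. WT CD44+ NK1.1- replicates had 12.0 and 20.3 CPM, and the Ezh2-KO replicates 3.96 and 4.46 CPM. In CD44+ NK1.1+ cells the WT library had 13.6 CPM and the Ezh2-KO library 1.76 CPM. The WT libraries of both CD44+ subsets thus lay above the Ezh2-KO libraries of both.

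Serpinb1a had 0.315 and 0.871 CPM in WT and Ezh2-KO CD44- NK1.1- cells, 23.2 and 33.7 CPM in the WT and 25.2 and 26.8 CPM in the Ezh2-KO CD44+ NK1.1- replicates, and 21.4 and 15.1 CPM in CD44+ NK1.1+ cells. Its close copies Serpinb1b and Serpinb1c had at most 7 and 2 counts in any library, below the filter, so the split of reads among copies is uncertain. Pxdc1 had 1.62 and 4.996 CPM in CD44- NK1.1- cells, 27.5 and 27.2 CPM in WT and 26.5 and 26.9 CPM in Ezh2-KO CD44+ NK1.1- cells, and 16.0 and 15.0 CPM in CD44+ NK1.1+ cells. Among the 9 genes Pxdc1 had the smallest spread over the 4 replicated libraries. Tmem176a was already at 20.1 and 16.4 CPM in WT and Ezh2-KO CD44- NK1.1- cells, with 28.9 and 32.3 CPM in WT and 39.2 and 36.0 CPM in Ezh2-KO CD44+ NK1.1- cells, and 34.0 and 27.0 CPM in CD44+ NK1.1+ cells. Tmem176b followed it, at 29.5 and 23.4, then 34.3 and 36.9 against 46.0 and 44.7, and last 35.1 and 35.2 CPM. CD44- NK1.1- cells thus already held much of the level of this pair.

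The comparison of CD44+ NK1.1- with CD44- NK1.1- cells asks which members were gained on entry into the gate that holds NKT17 cells. The members were chosen with earlier results of these data known, so the share of members called is a description. With both genotypes averaged, 8 of 9 members rose, where 1.59% of all 13794 genes tested rose, 1.07% fell and 2.66% changed in either direction (edgeR quasi-likelihood test, Benjamini-Hochberg adjusted p under 0.05). Serpinb1a rose by 5.68 ± 0.27 on the log2 scale (SE, adjusted p = 0.000928) and Il23r by 4.05 ± 0.24 (adjusted p = 0.00177). Pxdc1 (3.25 ± 0.13), Il17re (3.07 ± 0.20) and Il1r1 (2.91 ± 0.11) followed, with edgeR adjusted p of 0.000506, 0.00188 and 0.000506. Tmem176a rose by 0.90 ± 0.11 (edgeR adjusted p = 0.0145) and Tmem176b by 0.61 ± 0.096 (edgeR adjusted p = 0.0315). Ccr6 was called as well (edgeR adjusted p = 0.00235), and its size is given by the counts, 921 in the CD44+ NK1.1- libraries against 3, a ratio of 153 with an interval of 52.1 to 741 for counting error.

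Il17a did not pass (adjusted p = 0.450) at 125 counts against 1, a ratio of 62.1 with an interval of 10.95 to 2474, and its WT CD44+ NK1.1- replicates differed by 32.5 times. For all 9 genes each CD44+ NK1.1- library was above both CD44- NK1.1- libraries, which held for 11.4% of genes. For Il17a this rested on 3 counts in WT replicate 2, the level of the floor, against 1 and 0 counts. The median member by fitted size was Pxdc1, against a median log2 fold change of 0.0018 over all genes. The count ratio of Ccr6 stayed above that of Pxdc1 at the lower end of its interval. For Il17a the interval leaves out the spread between replicates, and its lower end was 8.24 in WT alone and 3.72 in Ezh2-KO alone. The place of Il17a above Pxdc1 is therefore uncertain. The 6 members Il23r, Il1r1, Il17re, Ccr6, Serpinb1a and Pxdc1 kept their call in each of the 13 settings tried, among them each genotype alone. Tmem176a lost its call in WT alone (0.61, edgeR adjusted p = 0.148) and without either Ezh2-KO CD44+ NK1.1- replicate (adjusted p = 0.130 and 0.0986). Tmem176b lost its call in those 3 settings and in Ezh2-KO alone, with adjusted p of 0.0660 to 0.439. Each CD44- NK1.1- group was 1 library, so its spread was taken from the replicated groups.

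**Figure D2:**
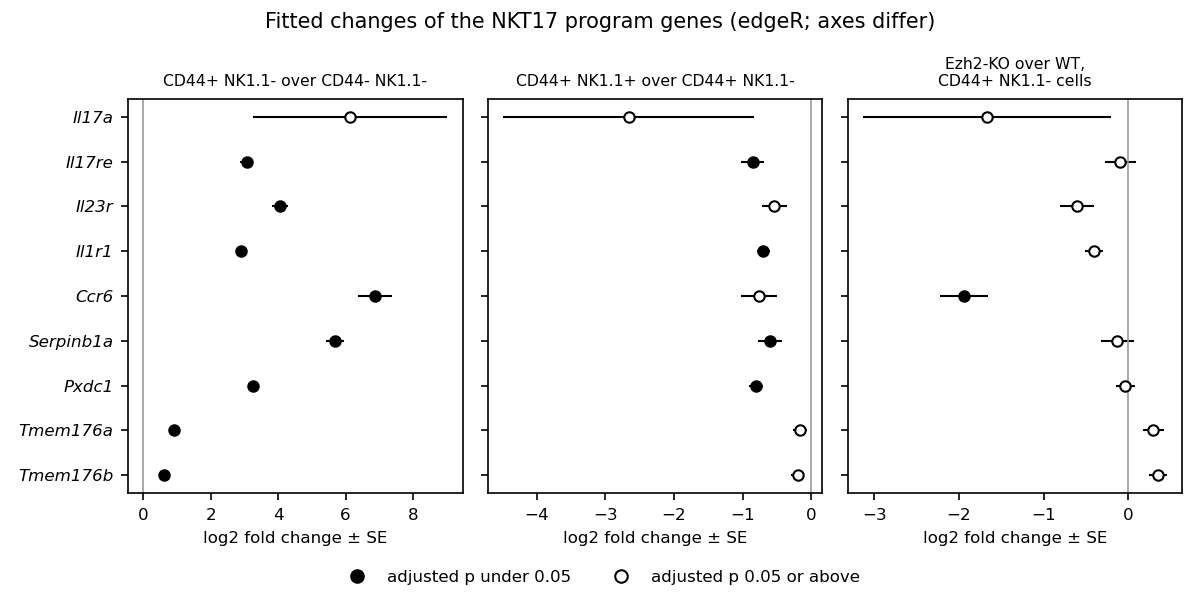
Fitted log2 fold change with its SE (edgeR) of each member in 3 comparisons, with filled points for an adjusted p under 0.05 and horizontal axes that differ between panels. Between CD44- NK1.1- and CD44+ NK1.1- cells 8 of 9 members were called higher, between CD44+ NK1.1- and CD44+ NK1.1+ cells 4 were called lower, and between genotypes 1, Ccr6, was called lower. In the left panel the fitted sizes of Il17a and Ccr6 rest on 0 to 2 counts in each CD44- NK1.1- library and depend on the prior count.

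The comparison of CD44+ NK1.1+ with CD44+ NK1.1- cells asks how the program stood in cells that had gained NK1.1. Of 9 members 4 fell, Il17re (-0.85 ± 0.17, edgeR adjusted p = 0.0134), Pxdc1 (-0.80 ± 0.11, adjusted p = 0.00398), Il1r1 (-0.70 ± 0.095, adjusted p = 0.00436) and Serpinb1a (-0.60 ± 0.17, adjusted p = 0.0437). This comparison moved many genes, with 16.1% of all genes lower and 32.5% called in either direction. Ccr6 (-0.76 ± 0.26, edgeR adjusted p = 0.0733) and Il23r (-0.54 ± 0.18, adjusted p = 0.0652) did not pass, nor did Il17a (-2.66 ± 1.83, adjusted p = 0.335), Tmem176a (-0.17 ± 0.11, adjusted p = 0.272) and Tmem176b (-0.19 ± 0.094, adjusted p = 0.162). For the 4 genes called, both CD44+ NK1.1+ libraries lay below all 4 CD44+ NK1.1- libraries, which held for 23.7% of genes, while for 24.4% of genes they lay above. The falls left these genes above CD44- NK1.1- cells, since over these 4 genes CD44+ NK1.1+ cells had 8.13 to 67.9 times the CD44- NK1.1- level in WT and 2.22 to 17.3 times in Ezh2-KO.

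Pxdc1 and Il1r1 kept these calls in all 13 settings. Serpinb1a kept its call in 7 of 13, with DESeq2 at an adjusted p of 0.0509 and limma-voom at 0.0596, and Il17re lost its call in WT alone (adjusted p = 0.181) and without Ezh2-KO CD44+ NK1.1- replicate 1 (edgeR adjusted p = 0.0698). Without either WT CD44+ NK1.1- replicate, 8 members were called lower in edgeR, where 30% and 27.9% of all genes were called lower and 62.6% and 57.2% in either direction. The spread then came from the close Ezh2-KO pair alone and the lone WT library was assumed to vary like it.

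The replicated genotype comparison asks what loss of Ezh2 did to the program in CD44+ NK1.1- cells. Of the 9 members 1 fell and none rose, where 4.94% of all genes changed, 3.78% higher and 1.16% lower. The member was Ccr6, with a log2 fold change of -1.94 ± 0.28 (edgeR adjusted p = 0.0186), or 3.86 times as many scaled counts in WT as in Ezh2-KO (interval 3.28 to 4.56 for counting error). Without either Ezh2-KO replicate the size was -1.86 and -2.03 and the call was lost, with edgeR adjusted p of 0.156 and 0.126. It was kept in the other 12 of 14 settings. Il23r (-0.61 ± 0.20, edgeR adjusted p = 0.160) and Il1r1 (-0.40 ± 0.11, adjusted p = 0.0991) were lower in both Ezh2-KO replicates without passing the test. Tmem176a (0.30 ± 0.12, edgeR adjusted p = 0.236) and Tmem176b (0.35 ± 0.11, adjusted p = 0.141) were higher in both without passing.

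Serpinb1a (-0.13 ± 0.19, edgeR adjusted p = 0.771), Il17re (-0.10 ± 0.18, adjusted p = 0.824) and Pxdc1 (-0.03 ± 0.12, adjusted p = 0.913) were the closest to no difference. Il17a had -1.67 ± 1.47 (edgeR adjusted p = 0.606). Leaving out WT replicate 1 turned this to 2.33, called higher (edgeR adjusted p = 0.0286), so that its direction rested on that library. The groups did not overlap for 4 members that were lower and 2 that were higher in Ezh2-KO, against 25.8% and 26.5% of all genes. At an unadjusted p under 0.05 in edgeR there were 5 members and 2853 of the 13794 genes. Without WT replicate 1 or without WT replicate 2, edgeR called 6 members each time, where 27.3% and 42% of all genes were called, with the spread then taken from the Ezh2-KO pair alone.

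In a model of genotype over the 3 subsets, Ccr6 fell by 2.17 ± 0.31 (edgeR adjusted p = 0.00685), the only member among the 9 to pass, where 11.3% of genes changed, 6.43% higher and 4.89% lower. Its call held in all 13 settings, with adjusted p up to 0.0408. Il23r had -0.55 ± 0.22 (edgeR adjusted p = 0.161). The other 7 members lay between -1.17 for Il17a and 0.23 for Pxdc1, with adjusted p of 0.567 and above. This model assumes a like genotype effect in the 3 subsets, and the values by subset differed.

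In the single CD44- NK1.1- libraries most members were higher without Ezh2, from a low level. Pxdc1 had 109 against 36 counts, a scaled ratio of Ezh2-KO over WT of 3.09 (95% interval 2.10 to 4.63 for counting error only, here and below, since reads are not independent molecules). Serpinb1a had a ratio of 2.77 (1.11 to 7.79), Il17re of 2.73 (1.79 to 4.27) and Il1r1 of 2.25 (1.72 to 2.95). For Il23r the ratio was 1.66 (0.856 to 3.30), and for Ccr6 it rested on 2 counts against 1 (0.106 to 120). In all, 6 members were thus more than 1.5-fold higher, a size chosen after the values were seen, where 10.8% of genes were, and Il17a, at 0 against 1 count, was the only one past that size on the low side, with 6.05% of genes. Tmem176a (0.814) and Tmem176b (0.792) were lower. In the same libraries Cd44 was 17.9 against 17.04 CPM, the NKT1 genes 298 against 526 CPM and the gamma-delta T cell markers 1077 against 1035 CPM, and their part in these ratios was not tested. Each genotype is 1 library here, and no test was made within this subset.

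In the single CD44+ NK1.1+ libraries the ratios lay below or near 1 for the members with more than 7 counts. Ccr6 had a ratio of Ezh2-KO over WT of 0.130 (interval 0.0887 to 0.185), or 7.70 times as much in WT (5.41 to 11.3). Il23r had 0.511 (0.418 to 0.623) and Il17re 0.621 (0.510 to 0.754), and these 3 were more than 1.5-fold lower, as were 7.15% of genes. Serpinb1a (0.706), Il1r1 (0.733), Tmem176a (0.794), Pxdc1 (0.939) and Tmem176b (1.01) lay within that size. Il17a was higher at 7 counts against 2, a ratio of 3.65 with an interval of 0.695 to 36.0, where 11.2% of genes were more than 1.5-fold higher.

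**Figure D3:**
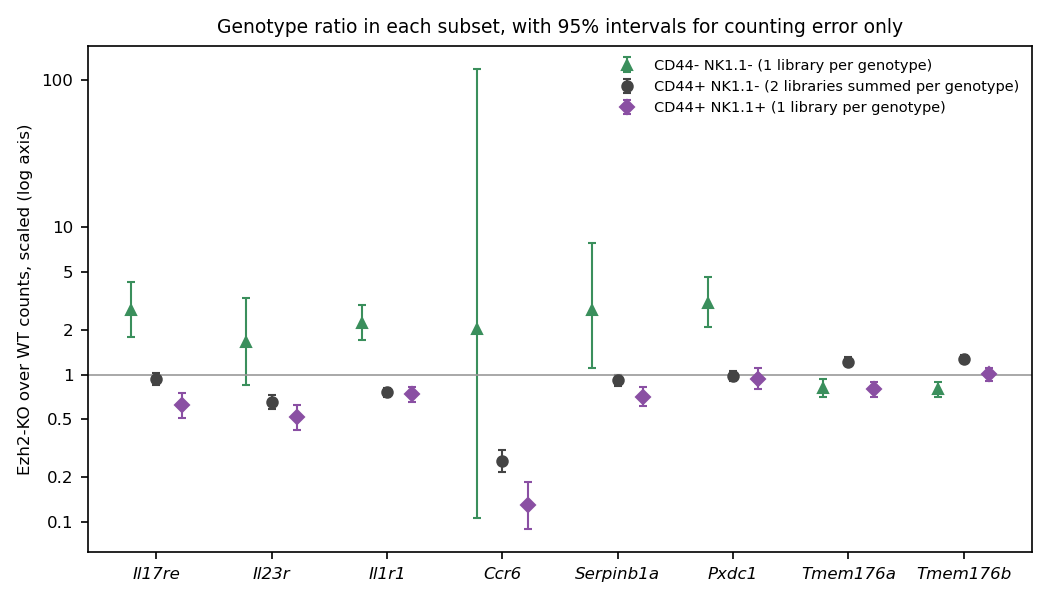
Ratio of Ezh2-KO to WT counts, scaled for library size and composition, on a log axis for 8 members (Il17a, with 0 counts in 1 library, is left out) in each subset, with 95% intervals for counting error only. In CD44- NK1.1- cells 6 members lie above 1, from 1.66 to 3.09, and Ccr6 lies at 0.259 in CD44+ NK1.1- and 0.130 in CD44+ NK1.1+ cells.

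Whether the genotype effect differed between subsets was tested as an interaction. Each CD44- NK1.1- and CD44+ NK1.1+ group was 1 library, so the SE rests on the spread of the CD44+ NK1.1- replicates. Between CD44- NK1.1- and CD44+ NK1.1- cells no member passed in edgeR, where 0.0217% of genes did. Il1r1 had a difference of 1.57 ± 0.20 on the log2 scale (unadjusted p = 0.00022 in edgeR, adjusted p = 0.124) and Pxdc1 of 1.66 ± 0.24 (unadjusted p = 0.00043, adjusted p = 0.149). Il17re had 1.54 ± 0.38 (edgeR adjusted p = 0.595). At an unadjusted p under 0.05 in edgeR there were 7 members and 648 of the 13794 genes. Of these members, Tmem176a (-0.59 ± 0.21) and Tmem176b (-0.68 ± 0.19) had the opposite sign. DESeq2 called 1 member, Il1r1 (adjusted p = 0.0251), and limma-voom called 0. In WT alone the gain from CD44- NK1.1- to CD44+ NK1.1- cells was 3.69 for Il1r1, 4.07 for Pxdc1 and 3.84 for Il17re on the log2 scale, and in Ezh2-KO alone 2.12, 2.42 and 2.29. Between CD44+ NK1.1+ and CD44+ NK1.1- cells 0 members and 0% of genes passed in edgeR. There 1 member, Tmem176a, and 519 of the 13794 genes had an unadjusted p under 0.05 in edgeR, and DESeq2 and limma-voom called 0 members. The Ccr6 differences were 2.88 ± 1.76 and -1.0 ± 0.52 (edgeR adjusted p = 0.992 and 0.99995).

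The members resembled each other in part. Over the 8 libraries, which share depth, scaling and the 3 subsets, Pearson's r of log2(CPM + 1) was 0.814 to 0.990 over the 15 pairs of the 6 genes Il23r, Il1r1, Il17re, Ccr6, Serpinb1a and Pxdc1, which were grouped for their like pattern, so that a high r follows from the choice. With these 6, Tmem176a had r of 0.750 to 0.910 and Tmem176b of 0.546 to 0.810. Il17a had r of 0.293 to 0.522 with the other 8. Tmem176a and Tmem176b had 0.949 with each other.

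Genes, not members, close to the members' mean standardised level were ranked by r over the 8 libraries. The ranking used these same libraries, so that a pattern like that of the members follows from the choice. Of the first 8, the 7 reported here were Sdc1 (0.979), Mmp25 (0.976), Susd2 (0.974), Fam83a (0.970), Stom (0.970), Chmp2a (0.968) and Stab2 (0.954). Sdc1 encodes syndecan-1, a known surface marker of NKT17 cells. Sdc1 had 26.7 and 28.1 CPM in WT and 22.6 and 20.6 CPM in Ezh2-KO CD44+ NK1.1- cells, against 6.11 and 4.996 CPM in CD44- NK1.1- cells.

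Mmp25, a membrane-bound metalloprotease, was the 1 gene of this set called between genotypes in CD44+ NK1.1- cells, where 4.94% of all genes were. It had 15.5 and 17.9 CPM in WT against 10.2 and 9.54 CPM in Ezh2-KO CD44+ NK1.1- cells and 14.5 against 6.69 CPM in CD44+ NK1.1+ cells, and 0.045 and 0.183 CPM in WT and Ezh2-KO CD44- NK1.1- cells. It fell by 0.76 ± 0.15 without Ezh2 (edgeR adjusted p = 0.0497).

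**Figure D4:**
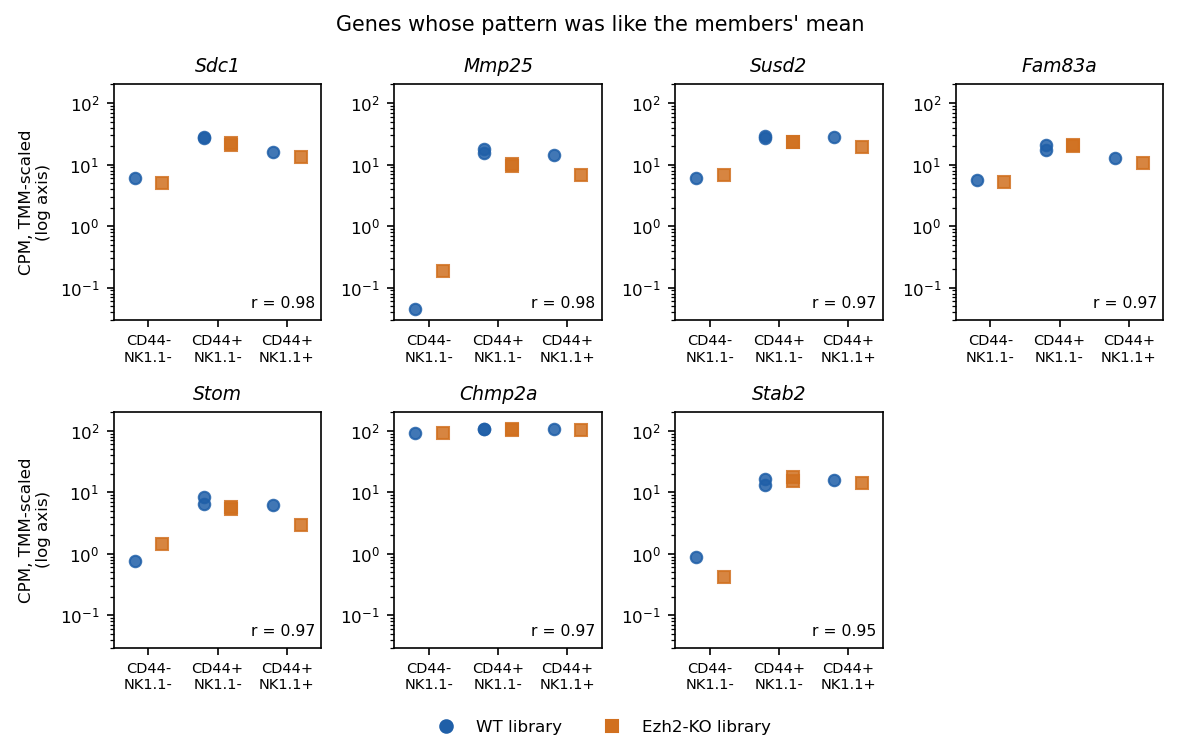
Level (CPM scaled by TMM, log axis) of 7 of the 8 genes most like the members' mean, by subset, WT as blue circles and Ezh2-KO as orange squares, 1 point per library, with Pearson's r over the 8 libraries in each panel. The other 6 are lowest in the CD44- NK1.1- libraries by a wide margin, while Chmp2a moves within 93.3 to 109 CPM.

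Genes that act around the program were counted from lists, which were also chosen with earlier results of these data known. Of 16 type 17 regulators tested, 1 rose and 2 fell from CD44- NK1.1- to CD44+ NK1.1- cells, where 1.59% and 1.07% of all genes did. Ahr (1.58, edgeR adjusted p = 0.0169), the aryl hydrocarbon receptor, rose, while Sox13 (-1.63, adjusted p = 0.000928) and Sox4 (-1.08, adjusted p = 0.00938), factors of early innate-like T cells, fell. Rora (-0.27, edgeR adjusted p = 0.562), Maf (0.10, adjusted p = 0.727) and Zbtb7b (-0.08, adjusted p = 0.691) did not pass. With NK1.1, 4 regulators rose and 4 fell, where 16.4% and 16.1% of all genes did. Irf4 (-2.67, edgeR adjusted p = 0.000718) and Sox13 (-1.09, adjusted p = 0.000903) were among those that fell. Without Ezh2 in CD44+ NK1.1- cells 2 rose and 1 fell, where 3.78% and 1.16% of all genes did. Sox13 had 161 and 155 CPM in Ezh2-KO against 61.8 and 56.8 CPM in WT (1.41, edgeR adjusted p = 0.00163), Bcl6 rose by 1.35 (adjusted p = 0.0158) and Ikzf3 had -0.78 (adjusted p = 0.00826). List medians on the log2 scale were 0.15, -0.28 and -0.18 in these 3 comparisons, with medians over all genes of 0.0018, 0.0021 and -0.0054.

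Of 8 IL-17 family and related genes tested, 1 rose on entry into CD44+ NK1.1- cells, where 1.59% of all genes did. This was Il17rc (3.25 ± 0.44, edgeR adjusted p = 0.0201), a chain of the receptor for interleukins 17A and 17F, at 1.67 and 2.28 CPM in WT against 0.135 CPM, or 3 counts, in CD44- NK1.1- cells. With NK1.1, 1 rose and 2 fell, where 16.4% and 16.1% of all genes did. Il17ra rose by 0.48 (edgeR adjusted p = 0.00889). Il17rb, the receptor chain for interleukin-25 and a marker of NKT2 and NKT17 cells, was among those that fell (-2.56, edgeR adjusted p = 0.000282). The list medians were 0.063 on entry and -1.62 with NK1.1, against medians over all genes of 0.0018 and 0.0021. Il17f did not pass in either comparison (3.78 and -3.71, edgeR adjusted p = 0.545 and 0.286). Of 14 receptor and signalling genes for the inducing cytokines, Il18rap (1.05, edgeR adjusted p = 0.0126) and Il21r (0.57, adjusted p = 0.0310) rose on entry, where 1.59% of all genes did. With NK1.1, 9 rose and 1 fell, Il6ra (-3.51, edgeR adjusted p = 0.000282), where 16.4% and 16.1% of all genes did. These genes and the members Il23r and Il1r1 thus did not share a direction. Without Ezh2, Il18rap had -1.22 (edgeR adjusted p = 0.00725). The list medians were 0.0079 on entry, 0.46 with NK1.1 and -0.17 without Ezh2.

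Of 16 type 17 surface and trafficking genes, 6 rose and 2 fell on entry, where 1.59% and 1.07% of all genes did, with Cd44 (3.28, edgeR adjusted p = 0.000506), itself part of the gate, Sdc1 (2.14, adjusted p = 0.00171), S100a4 (1.53, adjusted p = 0.00143) and the leukotriene receptor gene Ltb4r1 (4.03, adjusted p = 0.00449) among those that rose. With NK1.1, 4 rose and 8 fell, where 16.4% and 16.1% of all genes did. Ccr7 (-2.83, edgeR adjusted p = 0.00179), a receptor that guides cells to lymph nodes, was among those that fell. Without Ezh2, 3 fell, where 1.16% of all genes did, Itgae (-1.23, edgeR adjusted p = 0.0161), S100a4 (-0.62, adjusted p = 0.0190) and Cd44 (-0.62, adjusted p = 0.0436). The list medians were 0.17 on entry, -0.45 with NK1.1 and -0.15 without Ezh2. Among genes of the other NKT lineages, 10 of 12 NKT1 genes rose with NK1.1, where 16.4% of all genes did. Tbx21 (2.31, edgeR adjusted p = 0.000282) and Klrb1c, which encodes NK1.1 (3.99, adjusted p = 0.0251), were among them. The NKT1 genes summed to 8608 and 8169 CPM in CD44+ NK1.1+ cells, against 659 to 2125 CPM in CD44+ NK1.1- cells, beside the lower level of the 4 members. Their part in those falls was not tested. Of 9 NKT2 genes 6 fell and 2 rose with NK1.1, where 16.1% and 16.4% of all genes did. Gata3 did not pass (-0.20, edgeR adjusted p = 0.121) and Zbtb16 had -1.03 (adjusted p = 0.00109).

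Genes of these other lineages also moved in the comparisons where members did. On entry into CD44+ NK1.1- cells 3 of the 12 NKT1 genes rose, where 1.59% of all genes did. These were Tbx21 (1.49), Cxcr3 (1.32) and Il2rb (1.06), with edgeR adjusted p of 0.00198, 0.00188 and 0.0407. The list median was 2.36. The same 3 fell without Ezh2 in CD44+ NK1.1- cells, where 1.16% of all genes did. Tbx21 fell by 1.29, Il2rb by 1.16 and Cxcr3 by 0.70 (edgeR adjusted p = 0.00342, 0.0303 and 0.0121), with a list median of -1.46. The NKT1 genes summed to 2125 and 1173 CPM in the WT and 707 and 659 CPM in the Ezh2-KO replicates. Of the 9 NKT2 genes, Cd4, Ccr8 and Il13 fell without Ezh2, by 1.14, 1.13 and 1.17 (edgeR adjusted p = 0.00320, 0.00405 and 0.0247). Of this list 1 gene rose, where 1.16% of all genes fell and 3.78% rose, and the list median was -0.28. The NKT2 genes summed to 1369 and 1190 CPM in WT against 916 and 947 CPM in Ezh2-KO. Of these, Ly6c2 had 208 and 81.2 CPM in WT against 31.1 and 33.2 CPM in Ezh2-KO, and was highest in CD44+ NK1.1+ cells, at 653 and 672 CPM. Epas1 and Plac8 had higher means in Ezh2-KO than in WT, at 47.5 against 30.6 CPM and 250 against 223 CPM. Ccr6 fell in the same comparison, and the part of these genes in its fall was not tested.

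Gamma-delta T cells that make interleukin-17 carry several of the members too. Of 7 gamma-delta markers tested, 5 rose without Ezh2 in CD44+ NK1.1- cells, where 3.78% of all genes did, among them Trdc (2.03, edgeR adjusted p = 0.00855) and Trgc1 (0.67, adjusted p = 0.0173). Sox13 and Blk are on this list and among the type 17 regulators, and Cd163l1 is also among the surface genes. The 8 markers in the table summed to 913 and 885 CPM in Ezh2-KO against 540 and 584 CPM in WT CD44+ NK1.1- cells, where Ccr6 had the opposite direction. They summed to 1035 and 1077 CPM in CD44- NK1.1- cells, where the 6 members of shared pattern were lowest, and to 479 and 808 CPM in CD44+ NK1.1+ cells. In CD44- NK1.1- cells Trgc1 (461 and 498 CPM) and Sox13 (304 and 294 CPM) were the highest of these markers. Trdc had 8.72 and 7.33 CPM there, against 10.4 and 6.41 CPM in WT and 33.9 and 34.7 CPM in Ezh2-KO CD44+ NK1.1- cells. Group 3 innate lymphoid markers, of which Ltb, also made by T cells, was the highest, summed to 510 to 836 CPM. On entry 1 of 8 rose, where 1.59% of all genes did. No marker of these 2 lists was at 0 in all libraries.

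The genes beside the members in the genome mostly did not follow them. Il17rc starts 696 bases after Il17re and was higher with it. Il12rb2, the interleukin-12 receptor gene 46638 bases from Il23r, rose by 3.93 ± 0.57 with NK1.1 (edgeR adjusted p = 0.0226), where Il23r had -0.54. Gm8465, 2052 bases beyond Ccr6, had 2.34 and 3.44 CPM in WT and 0.954 and 1.26 CPM in Ezh2-KO CD44+ NK1.1- cells, and was lower in Ezh2-KO in both other subsets as well. Over the 3 subsets Gm8465 had a genotype difference of -1.30 ± 0.22 (edgeR adjusted p = 0.00986), in the direction of Ccr6. On the other side of Ccr6, Cep43, 39563 bases away, had 38.4 to 41.0 CPM in all 4 CD44+ NK1.1- libraries. Il1rl2, 8387 bases after Il1r1, had 14.0 to 20.4 CPM there and did not pass on entry (0.07 ± 0.12, edgeR adjusted p = 0.865).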

How the data were processed

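RNA was sequenced from 8 samples of sorted thymic NKT cells, each library on 4 lanes per the series' design text. The authors deposited unnormalized read counts for each gene. Per the submitters' processing notes the authors used CASAVA, aligned to mm10 with Subread 1.4.3-p1 and counted with featureCounts. No source used here gives the gene annotation or strand setting, and reads from overlapping genes or close copies can be assigned to either. Of 27179 gene IDs, 25275 matched a RefSeq symbol, and positions are those of RefSeq for this assembly.

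The filter filterByExpr over 6 groups left 13794 genes, which were scaled by TMM and tested with the quasi-likelihood test of edgeR 4.0.16 (robust=TRUE) in R 4.3.3, with Benjamini-Hochberg adjustment over all genes and calls at an adjusted p under 0.05. One model gave each group its mean (2 residual degrees of freedom, from the replicated groups), and another added genotype to subset (4). Adjusted p-values are from edgeR unless DESeq2 1.42.0 or limma-voom 3.58.1 is named. The scripts were tested on simulated data. Depth of 20308745 to 22995090 counts bounds an absent gene at 3 counts. Whether subsets share animals is not stated, and libraries were treated as independent.

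Always named are the 9 members, Ezh2 and Rora, Maf, Il17f, Sox13, Zbtb7b, Tbx21, Gata3, Zbtb16 and Klrb1c. To these come up to 4 called genes of smallest p per list and comparison, the 8 genes of most similar pattern with a mean of at least 2 log2 CPM, and the neighbouring genes on the chromosome. A gene that this rule also names is not reported here and was left out of its list. Members and lists were chosen with earlier results of these data known.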

Additional observations from a re-analysis of the deposited data

How the results depend on the processing

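Alternatives were DESeq2 size factors, the Wald test of DESeq2, limma-voom, no filter, a filter of 1 CPM in 2 libraries, single genotypes, only the 4 CD44+ NK1.1- libraries, and each library left out in turn. Comparisons between subsets, and differences of the genotype effect, could not be formed without a library that was the only one of its group. The number of members called, left-out libraries aside, differed by more than 1.5 times in 2 settings. DESeq2 called 1 rather than 0 for the difference of the genotype effect between CD44- NK1.1- and CD44+ NK1.1- cells, and WT only called 2 rather than 4 between CD44+ NK1.1+ and CD44+ NK1.1- cells. With libraries left out, the members called ranged from 0 to 6 (main 1) for genotype in CD44+ NK1.1- cells, 1 to 3 (main 1) for genotype over the subsets, 6 to 9 (main 8) and 2 to 8 (main 4) for the steps between subsets, and 0 to 7 for either difference of genotype effects. The highest counts came without a WT CD44+ NK1.1- replicate, except for genotype over the subsets, where 3 were called without either CD44- NK1.1- library. The cause was not tested beyond the fewer samples.

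Counts over all genes moved likewise. For genotype in CD44+ NK1.1- cells 682 became 101 to 5792 with libraries left out, and over the subsets 1561 became 489 to 2794. For entry into CD44+ NK1.1- 367 became 83 to 4394, and 68 in Ezh2-KO only. With NK1.1, 4479 became 1519 to 8585, 1416 in WT only and 2565 in Ezh2-KO only. For the differences of genotype effects, 3 and 0 became 28 and 24 with DESeq2, 24 and 1 without a filter, and up to 3063 and 2634 with libraries left out. DESeq2 put 58.7% of calls higher in Ezh2-KO CD44+ NK1.1- cells, against 76.5%, and 71.9% on entry into CD44+ NK1.1-, against 59.9%.

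Of the log2 fold changes of single members under an alternative, 581 kept direction and side of the threshold, 46 gained a call, 17 lost one and 25 changed sign. Over the 3 subsets, limma-voom gave Il17a 0.039, Il17re -0.11 and Tmem176a 0.024. In WT only, Tmem176a had 0.15 between CD44+ NK1.1+ and CD44+ NK1.1- cells. With libraries left out, genotype in CD44+ NK1.1- cells ranged from -2.63 to 2.33 for Il17a, -0.27 to 0.098 for Il17re and -0.37 to 0.17 for Serpinb1a. Over the subsets it ranged from -1.86 to 1.85 for Il17a, -0.29 to 0.26 for Il17re, -0.43 to 0.021 for Il1r1, -0.063 to 0.36 for Pxdc1, -0.34 to 0.040 for Serpinb1a and -0.092 to 0.11 for Tmem176a. The difference of genotype effects between CD44+ NK1.1+ and CD44+ NK1.1- cells ranged from -0.52 to 4.44 for Il17a. The cause was not tested. CPM scaled by library size alone was 0.928 to 1.05 times the TMM-scaled level. No paired analysis was possible because the labels give no replicate numbers, and the numbers used here follow accession order and name a sample only.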
